A study of Homo sapiens with 12 samples.

Results

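The genes described here build, bind and contract actin filaments in prostate cancer cells, or are targets of the transcription factors that read the state of those filaments. They form a list of 47 genes out of 60675 in the deposited tables. The list holds 4 tropomyosins, 2 filamins, 7 transgelins and calponins, 3 actins, 2 alpha-actinins, 6 chains of myosin II, 7 focal adhesion and LIM proteins, SRF with its coactivators MRTFA and MRTFB, 4 YAP targets, 6 proteins that bind, sever or cap actin, the membrane linkers EZR and MSN, and the Rap GTPase regulator SIPA1L2. TPM4, FLNA and SIPA1L2 were put on the list because earlier results from these libraries showed them higher after combined inhibition in C4-2 cells, and CARMIL3 because it was named earlier in the LNCaP libraries. For those genes the comparisons that chose them are given as values without a test, and they are left out of the counts there. Other comparisons of TPM4, FLNA and SIPA1L2 with the same C4-2 control libraries reuse values that chose them. Those are also given without a test, but the genes stay in the counts there.

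The libraries were made from LNCaP, a prostate cancer line taken from a lymph node metastasis that depends on androgen, and from its castration-resistant descendant LNCaP:C4-2 (C4-2 below). R1881, a synthetic androgen, was present at 1 nM for 72 h in all 12 of them, in medium stripped of steroids, so no library shows the cells without androgen. In C4-2 there were 4 groups of 2 libraries, which were R1881 alone, R1881 with namoline (an inhibitor of the lysine demethylase KDM1A, 50 µM), R1881 with TCE-5002 (an inhibitor of KDM7A), and R1881 with both (the combination). LNCaP had R1881 alone and the combination, again with 2 libraries each. The dose of TCE-5002 was 100 µM in the series description and lower in the study's methods, and TCE-5002 is known to act on related demethylases as well. The labels and methods call the libraries biological replicates of established lines. The p-values rest on the spread between the 2 libraries of a group, pooled over all groups of a fit and moderated over genes.

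Actin monomers assemble into filaments that tropomyosins coat, filamins and alpha-actinins cross-link and myosin II pulls on, with zyxin, vinculin and talin holding the filament ends at adhesions. Free actin monomers hold the coactivators MRTFA and MRTFB out of the nucleus, and when monomers are used up the coactivators join SRF at CArG boxes in the promoters of many of these same genes. YAP, which responds to filament tension and cell shape, acts through TEAD proteins on CCN1, CCN2, ANKRD1 and AMOTL2.

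Total counts per library lay between 14791602 and 20690819, and levels are given as counts per 1000000 counted (CPM). Genes of prostate luminal epithelium were read in every group (all 8 listed markers reached 1 CPM), and basal markers reached it in none. The libraries labelled LNCaP stood apart from C4-2 in several mesenchymal markers, though COL1A1 and PDGFRB of the same list were lower in them. The intermediate filament gene VIM was at 641 and 733 CPM in LNCaP R1881 and at 2.62 and 2.28 CPM in C4-2 R1881. The epithelial cadherin gene CDH1 was at 44.6 and 39.6 CPM in the former and at 949 and 1007 CPM in the latter. They are therefore called the libraries labelled LNCaP wherever a direction is drawn from them. The table of replicate 1 of the LNCaP combination names in its header an alignment of R1881 with namoline only, whereas its title gives the combination, so LNCaP results are given with and without it.

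Of the 47 genes, 42 had at least 1 promoter window in the RefSeq table of build GRCh38.p14, which gives 300 bases a window (250 before a transcription start and 50 from it on), and some had several. A CArG box, searched as CC, 6 bases of A or T, and GG (the same on either strand), was found in 7 of their 79 windows (8.86%), which belonged to SRF, TES, ACTN1, ACTG1, CNN2, TPM4 and FLNA. Of all 35116 windows in the table, 1.29% held one. The list was drawn up partly of SRF targets, so this share is a description of it. The TEAD motif GGAATG, on either strand, was in 20.25% of the members' windows and in 14.03% of all windows. Some windows with a box are printed 5′ to 3′ with the CArG boxes in capitals, picked after the results were seen. They belong to TPM4 and FLNA, chosen on the combination, to CNN2 and SRF, called higher after it, and to TES. TES was called with each single inhibitor. ACTG1, higher after the combination by less than the size limit used below, and ACTN1 are not printed. TAGLN2 and CAPG were also called with each single inhibitor, and their windows held no box. The box started 173 bases before the transcription start in TPM4, 94 in FLNA, 89 in CNN2, 30 and 10 in SRF, and 242 in TES, where its end overlapped a GGAATG match.

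TPM4, chr19:16067288-16067587, plus strand: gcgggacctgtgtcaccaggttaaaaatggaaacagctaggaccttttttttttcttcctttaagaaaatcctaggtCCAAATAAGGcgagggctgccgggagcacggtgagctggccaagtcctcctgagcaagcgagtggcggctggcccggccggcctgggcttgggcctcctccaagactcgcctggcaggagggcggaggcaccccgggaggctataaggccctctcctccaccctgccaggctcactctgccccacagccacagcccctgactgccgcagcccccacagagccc

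FLNA, chrX:154374585-154374884, minus strand: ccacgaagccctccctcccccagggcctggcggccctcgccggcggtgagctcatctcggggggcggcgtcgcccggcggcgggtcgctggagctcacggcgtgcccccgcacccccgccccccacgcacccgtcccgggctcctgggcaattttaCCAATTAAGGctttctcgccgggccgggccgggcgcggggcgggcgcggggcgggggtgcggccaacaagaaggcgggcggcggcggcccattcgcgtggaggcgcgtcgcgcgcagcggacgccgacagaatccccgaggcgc

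CNN2, chr19:1026358-1026657, plus strand: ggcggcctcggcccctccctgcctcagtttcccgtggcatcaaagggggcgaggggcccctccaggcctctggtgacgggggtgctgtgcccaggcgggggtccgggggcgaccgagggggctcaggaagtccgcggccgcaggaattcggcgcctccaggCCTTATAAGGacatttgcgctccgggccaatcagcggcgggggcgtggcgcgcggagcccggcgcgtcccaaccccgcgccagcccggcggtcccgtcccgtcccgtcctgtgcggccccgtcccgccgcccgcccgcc

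SRF, chr6:43171019-43171318, plus strand: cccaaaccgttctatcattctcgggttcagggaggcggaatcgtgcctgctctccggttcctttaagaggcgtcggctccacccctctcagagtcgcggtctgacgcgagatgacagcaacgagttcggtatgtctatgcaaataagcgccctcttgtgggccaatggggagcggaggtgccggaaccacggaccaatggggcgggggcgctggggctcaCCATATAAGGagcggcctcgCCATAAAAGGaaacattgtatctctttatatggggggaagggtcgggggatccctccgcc

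TES, chr7:116222703-116223002, plus strand: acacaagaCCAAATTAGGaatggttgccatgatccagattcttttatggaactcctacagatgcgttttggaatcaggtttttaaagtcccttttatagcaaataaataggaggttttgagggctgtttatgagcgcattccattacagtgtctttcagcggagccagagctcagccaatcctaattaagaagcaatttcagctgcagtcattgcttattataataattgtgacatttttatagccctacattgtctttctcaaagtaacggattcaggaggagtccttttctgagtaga

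The TES window belongs to 1 of its 2 transcription starts, and the other held no box. TPM4 and SRF also had further windows, and those held no box. These positions say where the letters stand and not whether a factor was bound there.

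The first question is what inhibiting both demethylases did to these genes in C4-2. The tropomyosin TPM4, the cross-linker FLNA and the Rap regulator SIPA1L2 stood far above their R1881 level, and with them rose the calponin CNN2, the YAP and SRF target CCN1, the filament-severing GSN, the adhesion proteins ZYX and PDLIM5, SRF itself, beta-actin and the heavy chain of non-muscle myosin MYH9. TPM4 was at 8.81 and 9.49 CPM with R1881 and at 166 and 176 CPM with the combination, which is 18.4-fold higher (a log2 fold change of 4.20). FLNA was at 118 and 135 CPM with R1881 and at 1698 and 1932 CPM with the combination, a log2 fold change of 3.82. SIPA1L2 was at 50.8 and 48 CPM with R1881 and at 648 and 731 CPM with the combination, a log2 fold change of 3.78. In none of the 3 did the groups come near each other, but these are the values that chose the genes.

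**Figure D1:**
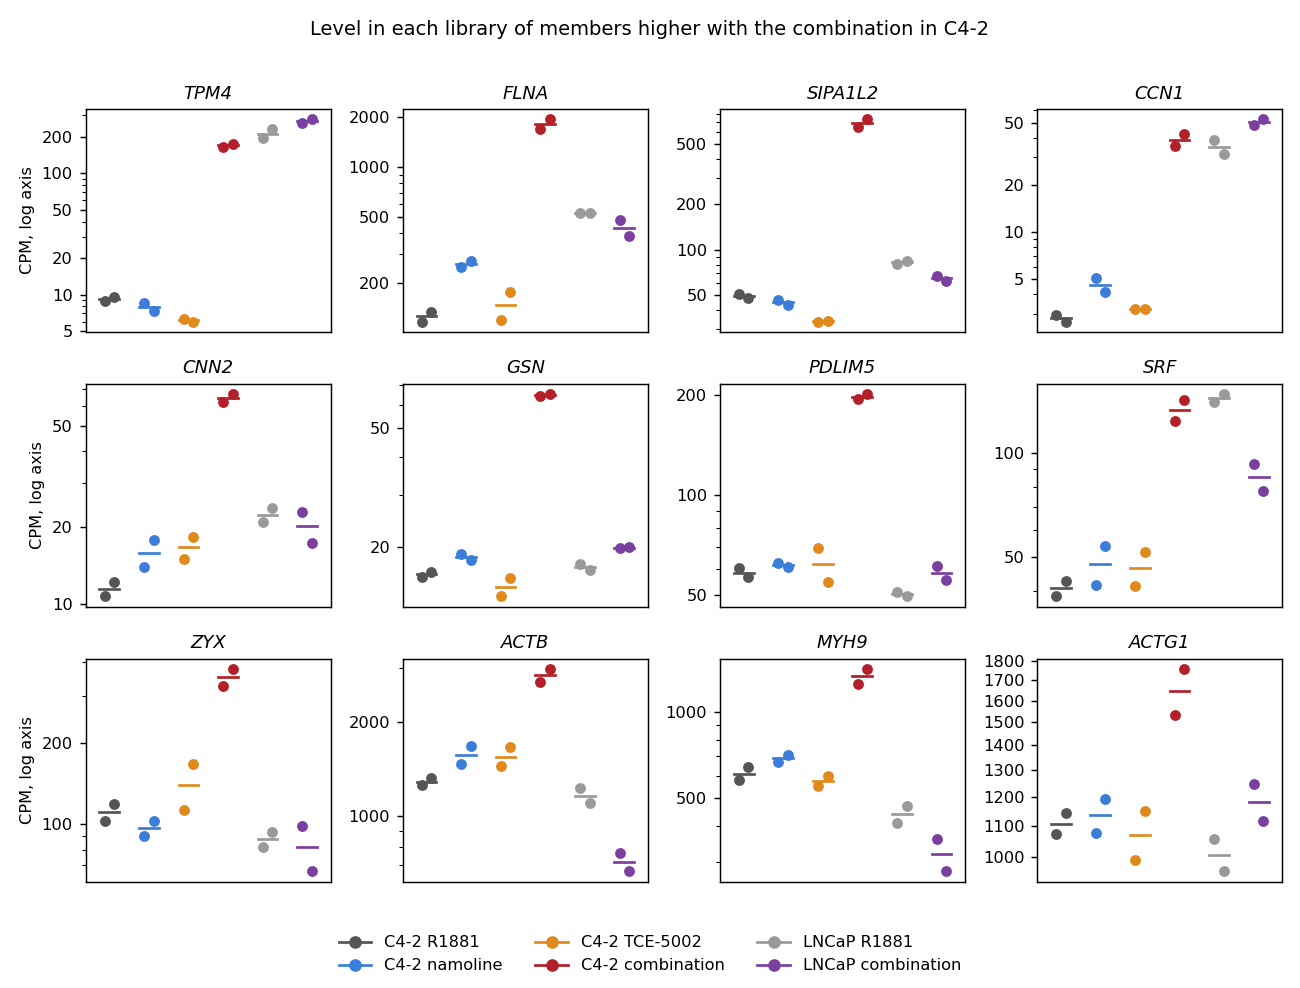
Level of 12 members in each library, as CPM on a log axis. Points are libraries, short lines are group means (n = 2), and colours are the 6 groups. In every panel both C4-2 combination libraries lie above the other 6 C4-2 libraries, and for CCN1 they overlap the libraries labelled LNCaP.

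A gene is said to have risen or fallen where its adjusted p (edgeR's quasi-likelihood test, Benjamini-Hochberg over all genes tested) was under 0.05 and its log2 fold change was at least 1 in size. Of the other 38 members tested, 11 rose and 1 fell with the combination. One of the 11, MYL9, passed the filter on low counts only through the combination libraries and so had to be higher there, and without it 10 of 37 rose. Among all 17702 genes tested, 21.7% were called, 8.9% higher and 12.8% lower. The median log2 fold change was 0.39 over these members and -0.03 over all genes. The list was made with earlier results known, so this difference describes it and does not test it.

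CNN2, a calponin that binds actin filaments in non-muscle cells, was at 10.7 and 12.2 CPM with R1881 and at 62.6 and 66.9 CPM with the combination. Its log2 fold change was 2.48 ± 0.16 (SE, edgeR adjusted p = 1.4e-08). CCN1, a secreted matrix protein and target of both SRF and YAP, was at 2.95 and 2.67 CPM and then at 35.4 and 42.3 CPM, a 13.5-fold rise (log2 3.75 ± 0.19, edgeR adjusted p = 1.4e-09). Both combination libraries were above all other C4-2 libraries for either gene. GSN, gelsolin, which severs and caps filaments, was at 15.8 and 16.6 CPM and rose to 64.1 and 64.9 CPM (log2 1.97 ± 0.14, edgeR adjusted p = 2.7e-08). PDLIM5, a LIM protein of stress fibres, was at 60.4 and 56.6 CPM and rose to 195 and 201 CPM (log2 1.73 ± 0.12, edgeR adjusted p = 4e-08). Zyxin, ZYX, which sits at adhesions under tension, was at 102 and 118 CPM and rose to 327 and 376 CPM (log2 1.65 ± 0.16, edgeR adjusted p = 7.7e-07). The 3 genes rose between 3.13-fold and 3.91-fold, and their groups did not overlap.

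The transcription factor SRF was called as well. SRF was at 38.5 and 42.9 CPM with R1881 and at 124 and 142 CPM with the combination (log2 1.69 ± 0.15, edgeR adjusted p = 3.4e-07). Its coactivators moved less and in opposite directions. MRTFA had a log2 fold change of 0.37 ± 0.18 (edgeR adjusted p = 0.099). MRTFB had one of -0.73 ± 0.11, which passed the adjusted p (edgeR, 6.5e-05) but not the size.

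Beta-actin and MYH9, the actin and myosin genes with the most counts, rose by about the same amount. ACTB was at 1262 and 1323 CPM with R1881 and at 2700 and 2960 CPM with the combination (log2 1.11 ± 0.13, edgeR adjusted p = 3.8e-06). ACTG1, the other cytoplasmic actin, was at 1072 and 1141 CPM and then at 1533 and 1757 CPM, a log2 fold change of 0.55 ± 0.12 that was under the size asked for (edgeR adjusted p = 0.0017). MYH9 was at 579 and 641 CPM and rose to 1260 and 1413 CPM (log2 1.11 ± 0.12, edgeR adjusted p = 1.8e-06). MYH10, the heavy chain of another non-muscle myosin, had a log2 fold change of -0.66 ± 0.11 (edgeR adjusted p = 0.00018), so the heavy chains moved in opposite directions. Of the light chains, MYL12A had a log2 fold change of 0.96 ± 0.13 and MYL12B one of 0.41 ± 0.12, both under the size asked for. The MYL12A value was 1.01 without R1881 replicate 1 and also without combination replicate 2. MYL9, the light chain best known from smooth muscle, had 7 and 5 counts with R1881 and 160 and 134 counts with the combination, and its summed CPM was 26.8 times higher (95% counting interval 15.1 to 52.5). Its fitted log2 fold change was 4.69, given without a test because it entered the fit through the combination libraries alone.

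Smooth muscle actin and the muscle filamin were called from low counts. ACTA2 had 4 and 6 counts with R1881 and 139 and 135 counts with the combination, a log2 fold change of 4.84 ± 0.41 (edgeR adjusted p = 2.8e-07). ACTA2 shares 14.24% of its exon bases with the death receptor gene FAS on the opposite strand, and the counting did not use strand. FAS itself stood at 2.11 and 2.08 CPM with R1881 and at 40.3 and 39.9 CPM with the combination. Its part in the ACTA2 value was not tested. FLNC had 10 counts in each R1881 library and 24 and 27 counts with the combination (log2 1.43 ± 0.44, edgeR adjusted p = 0.014). Without R1881 replicate 1 its adjusted p was 0.127, and without combination replicate 2 it was 0.0885. Of 7 smooth muscle markers, SMTN alone was at a mean of 1 CPM or more both with R1881 and with the combination, and the summed level of the 7 was 27.5 to 28.4 CPM with R1881 and 30.1 to 33.5 CPM with the combination. LMOD1, the leiomodin of smooth muscle, was at 0.234 and 0.325 CPM with R1881 and at 1.87 and 2.38 CPM with the combination, the libraries through which alone it passed the filter on low counts, so no test is given. DES and MYOCD had 0 counts in the C4-2 combination libraries, and MYH11 was at 1.08 and 0.501 CPM there against 0.75 and 1.5 CPM with R1881.

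CARMIL3, a regulator of the actin capping protein, was the member that fell. It was at 3.09 and 2.15 CPM with R1881 and at 1.19 and 0.626 CPM with the combination (log2 -1.55 ± 0.38, edgeR adjusted p = 0.0031). The tropomyosin TPM1, TAGLN, TAGLN2, CALD1, PFN1, MYH10 and MRTFB had smaller decreases that passed the adjusted p alone, and log2 fold changes of the remaining tested members lay between -0.23 and 0.96. Of the 12 listed mesenchymal genes, VIM, CDH2 and ZEB1 stayed below their level in the libraries labelled LNCaP, whereas COL1A1 lay above it. VIM and ZEB1 moved in opposite directions. VIM fell from 2.62 and 2.28 CPM with R1881 to 1.31 and 1.19 CPM with the combination (edgeR adjusted p = 0.018), marginally past the size limit. CDH2 had 0 counts in both groups. ZEB1 rose from 0.656 and 0.195 CPM to 5.06 and 6.26 CPM (log2 3.58 ± 0.43, edgeR adjusted p = 6.7e-06). In LNCaP R1881 ZEB1 was at 40.1 and 43.4 CPM. COL1A1 was at 49.5 and 50.9 CPM with R1881 and at 70.8 and 85.5 CPM with the combination. Its log2 fold change of 0.61 ± 0.20 was under the size asked for (edgeR adjusted p = 0.02). In LNCaP R1881 COL1A1 was at 4.89 and 4.01 CPM. FN1 fell with the combination (log2 -1.58 ± 0.15, edgeR adjusted p = 6.8e-07). PDGFRB also fell, from low levels (log2 -1.32 ± 0.48, edgeR adjusted p = 0.03). The summed level of the 8 luminal markers went from 3359 and 3375 CPM with R1881 to between 1147 and 1355 CPM with the combination. The part of that shift in the members' changes was not tested. In bulk RNA a smaller number of cells of a kind and less RNA per cell cannot be told apart.

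**Figure D2:**
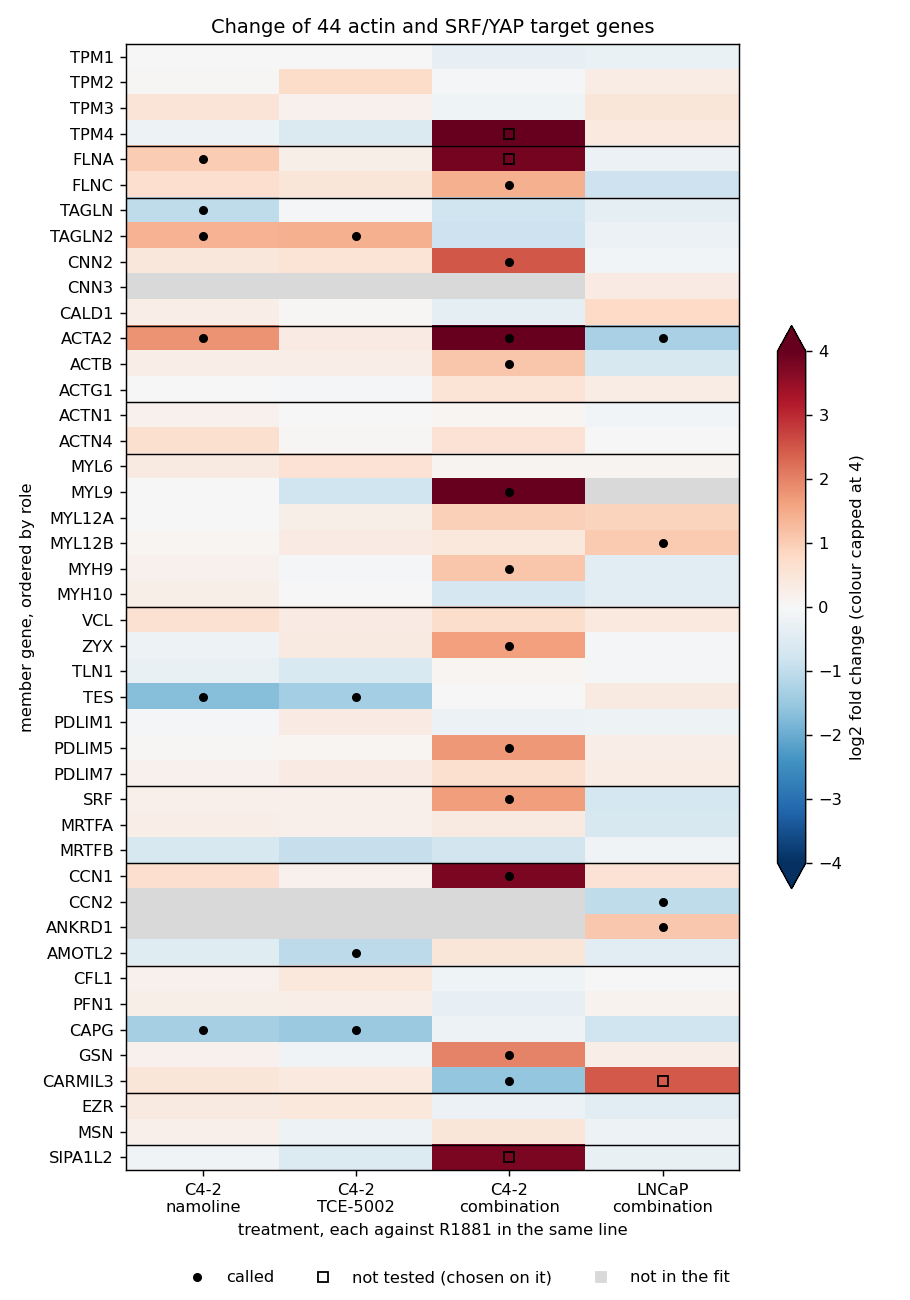
Log2 fold change of the 44 members that entered at least 1 fit (rows, ordered and ruled off by role) in 4 treatments against R1881 in the same line (columns). Colour is the log2 fold change, capped at 4, dots are called changes, open squares are values that chose the gene and were not tested, and grey cells were too low to be tested. The C4-2 combination column holds 11 called rises and 1 called fall, and the 3 chosen genes are the open squares in it.

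The share of TPM4 among the tropomyosins differed between the treatments. Genes were compared on a scale of CPM per kilobase of exon. The length is that of all annotated exons of a gene and not of the transcripts expressed, so ranks and shares between genes are approximate. On it TPM3 was the highest tropomyosin in C4-2 with R1881, with 69.8 and 68.9% of the summed level of the 4 genes. TPM4 held 2.54 and 2.86% of it with R1881, 1.94 and 1.65% with namoline, and 1.55 and 1.77% with TCE-5002. TPM3 remained the highest with the combination, at 46.3 and 45.5%, and TPM4 held 36.7 and 37.6%, close to the 42 and 45% in LNCaP R1881. That TPM4 share restates the values that chose the gene. Of the 2 filamins, FLNC made up under 1% in every C4-2 library and 44.3 and 45% in LNCaP R1881. On the same per kilobase scale ACTB was the highest of all members in C4-2 with R1881, at 397 CPM per kb, and with the combination, at 869 CPM per kb.

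**Figure D3:**
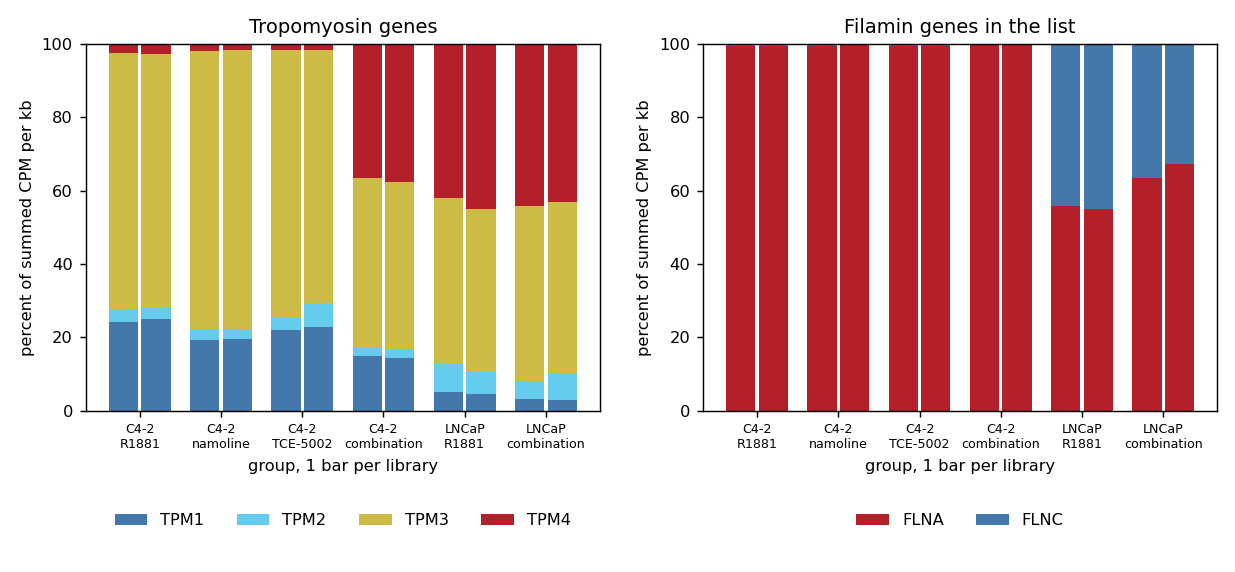
Share of each gene in the summed level of the tropomyosin genes (left) and of the 2 filamin genes on the list (right), in percent of summed CPM per kb of exon, 1 bar per library. TPM4 takes a visible share in the C4-2 combination libraries and in the libraries labelled LNCaP, and FLNC in the latter. Lengths are those of all annotated exons, so shares between genes are approximate.

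The single inhibitors were each compared with the same C4-2 R1881 libraries, so their changes share those controls. Namoline raised 3 members and lowered 3 of the 41 tested, where 12.1% of all genes were called, 5.16% higher and 6.9% lower. TCE-5002 raised 1 and lowered 3 of 41, where 11.9% of all genes were called, 5.07% higher and 6.83% lower. Those shares of members were 14.6% and 9.76%, near the background. FLNA, 1 of the 3 raised by namoline, was chosen on a comparison with these same controls. Without namoline replicate 2 the 6 members called with namoline were 3, as FLNA, TAGLN and CAPG were lost. The medians were 0.18 and 0.19 on the log2 scale over the members and 0 when rounded to 1 decimal over all genes.

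The members that moved with both inhibitors were TES, TAGLN2 and CAPG. TES encodes testin, a LIM protein of adhesions and stress fibres. It was at 441 and 435 CPM with R1881, at 138 and 135 CPM with namoline, at 182 and 159 CPM with TCE-5002, and at 437 and 441 CPM with the combination. TES thus fell with either inhibitor, by 1.70 ± 0.11 on the log2 scale with namoline (edgeR adjusted p = 2.9e-08) and by 1.36 ± 0.11 with TCE-5002 (edgeR adjusted p = 4.7e-07), and with both together its groups overlapped R1881 (log2 -0.02 ± 0.11, edgeR adjusted p = 0.88).

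TAGLN2, a transgelin that binds actin filaments, went the other way. It was at 58.8 and 55.4 CPM with R1881, at 143 and 157 CPM with namoline, at 147 and 156 CPM with TCE-5002, and at 32.8 and 33.1 CPM with the combination. It rose with namoline (log2 1.38 ± 0.11, edgeR adjusted p = 2.4e-07) and with TCE-5002 (log2 1.41 ± 0.11, edgeR adjusted p = 3.8e-07), and with the combination it lay below R1881 in both libraries (log2 -0.82 ± 0.11, edgeR adjusted p = 2.9e-05, under the size asked for). CAPG, which caps filament ends, was low throughout, at 3.05 and 4.16 CPM with R1881, 1.95 and 0.9 CPM with namoline, 1.61 and 0.912 CPM with TCE-5002, and 3.24 and 3.13 CPM with the combination. It fell with namoline (log2 -1.33 ± 0.36, edgeR adjusted p = 0.0089) and with TCE-5002 (log2 -1.49 ± 0.36, edgeR adjusted p = 0.0041). The namoline call was lost without R1881 replicate 2 (adjusted p = 0.0711) and without namoline replicate 2 (adjusted p = 0.13), and the value was -2.02 without namoline replicate 1.

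**Figure D4:**
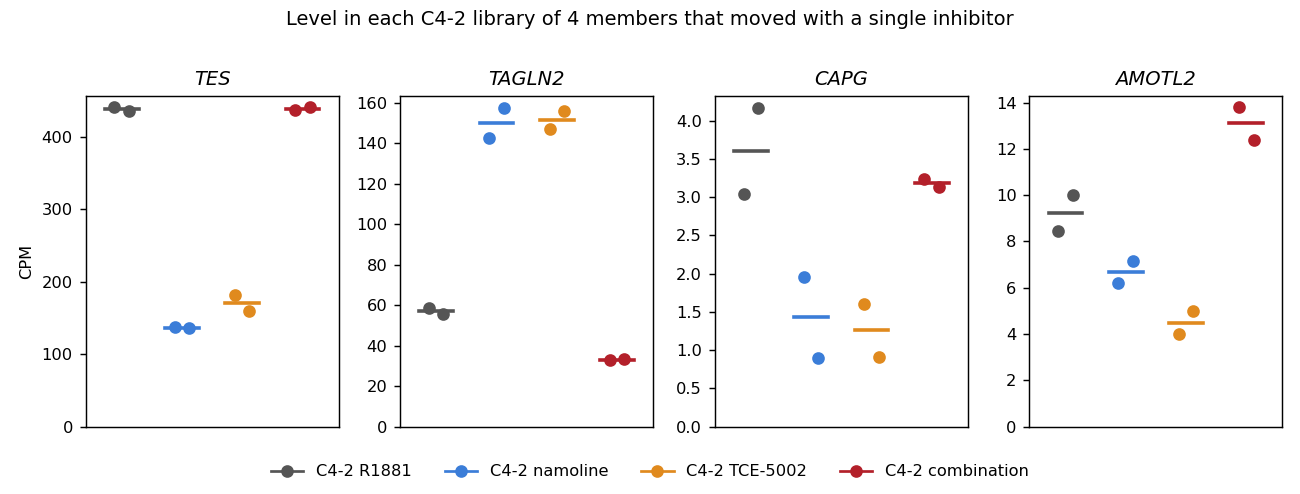
Level of TES, TAGLN2, CAPG and AMOTL2 in each C4-2 library, in CPM on axes that start at 0. Points are libraries and short lines are group means (n = 2). TES and CAPG drop with either inhibitor alone and TAGLN2 climbs, AMOTL2 drops with TCE-5002, and the combination libraries of TES and CAPG lie at the R1881 level.

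Other members moved with 1 inhibitor. FLNA was at 251 and 271 CPM with namoline, above both R1881 libraries (log2 1.03 ± 0.15), and at 121 and 177 CPM with TCE-5002 (log2 0.24 ± 0.15). No test is given, because these R1881 libraries also served to choose FLNA. Its namoline value of 1.03 fell to 0.75 when corrected for GC content, to 0.94 without R1881 replicate 1 and to 0.96 without namoline replicate 2. TAGLN, another transgelin, was at 12.7 and 14.8 CPM with R1881 and at 7.76 and 5.94 CPM with namoline (log2 -1.01 ± 0.21, edgeR adjusted p = 0.0014). AMOTL2, a scaffold of the Hippo pathway and a YAP target, was at 8.44 and 10 CPM with R1881 and at 3.99 and 4.99 CPM with TCE-5002 (log2 -1.03 ± 0.20, edgeR adjusted p = 0.00081). These 2 values lay close to the size limit. TAGLN was at -0.90 without R1881 replicate 2 and -0.84 without namoline replicate 2, and was marginally under the limit without TCE-5002 replicate 2, and AMOTL2 at -0.91 without R1881 replicate 2 and -0.88 without TCE-5002 replicate 1. ACTA2 had 23 and 10 counts with namoline (log2 1.80 ± 0.54, edgeR adjusted p = 0.017), a call that was lost without namoline replicate 1 (log2 1.07, adjusted p = 0.252) or without R1881 replicate 1 (adjusted p = 0.18). TPM4 and SIPA1L2 did not rise with either inhibitor. TPM4 was at 8.47 and 7.38 CPM with namoline and at 6.32 and 6.01 CPM with TCE-5002. SIPA1L2 was at 46.7 and 43.4 CPM with namoline and at 33.5 and 33.9 CPM with TCE-5002. The TCE-5002 values of both lay below R1881, with log2 fold changes of -0.57 ± 0.15 for TPM4 and -0.55 ± 0.12 for SIPA1L2. They are given without a test for the same reason as for FLNA.

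Whether the combination differed from the sum of the single effects was asked by the interaction term of namoline and TCE-5002 on the log2 scale. It was called for 15 of 38 members (39.5%), 12 above the sum and 3 below, against 35.3% of all genes (16.8% and 18.6%). The members that rose with the combination and lay above the sum were CCN1 (interaction 2.88 ± 0.28, edgeR adjusted p = 6e-07), GSN (1.92 ± 0.19), PDLIM5 (1.59 ± 0.17), ZYX (1.51 ± 0.22), CNN2 (1.46 ± 0.22), SRF (1.27 ± 0.21), MYH9 (1.03 ± 0.16), and from low counts ACTA2 (2.72 ± 0.79). MYL9, at 5.50, is counted too and is given without a test, and without it 11 of 37 lay above the sum. The ZYX interaction was 2.23 with the GC correction. The ACTA2 interaction was lost without R1881 replicate 2 (log2 2.18, adjusted p = 0.0984) and was 3.44 without namoline replicate 1. The MYL9 interaction ranged from 4.66 without namoline replicate 2 to 7.83 without namoline replicate 1. MYH9 fell just under the size asked for without R1881 replicate 2 (0.95) and without combination replicate 2 (0.98).

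Interactions were also called for the genes that moved with the single inhibitors. TES had an interaction of 3.03 ± 0.16 (edgeR adjusted p = 9.8e-10), TAGLN2 one of -3.60 ± 0.16 (edgeR adjusted p = 3.1e-10), CAPG one of 2.63 ± 0.51 (edgeR adjusted p = 0.00043) and AMOTL2 one of 1.99 ± 0.27 (edgeR adjusted p = 1.6e-05). The CAPG term was 3.31 without namoline replicate 1. AMOTL2 was at 6.22 and 7.14 CPM with namoline and at 13.8 and 12.4 CPM with the combination. For TES and CAPG the term measures a return to the R1881 level, and for the genes above other than ACTA2, which was also called with namoline, it measures a rise that was called with neither inhibitor alone. The other negative terms were those of CARMIL3 (-2.42 ± 0.48) and the membrane linker EZR (-1.01 ± 0.17). EZR was at 71 and 64.2 CPM with R1881, 85.9 and 89.2 CPM with namoline, 98 and 83.8 CPM with TCE-5002, and 56.9 and 60.9 CPM with the combination. The EZR value crossed the size limit under other settings, down to -0.84 with the GC correction, and without R1881 replicate 2 (-0.95), namoline replicate 2 (-0.98), TCE-5002 replicate 1 (-0.86) or combination replicate 1 (-0.98). ACTB had an interaction of 0.57 ± 0.17 and FLNC one of 0.28 ± 0.64, neither of which was called.

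In the libraries labelled LNCaP the same combination was compared with R1881. Of 42 members tested, 2 rose and 2 fell (9.52%), against 18.7% of all genes (7.4% higher and 11.3% lower), and the median log2 fold change was -0.09 over the members. Without combination replicate 1 the count was 5, where CCN2 was lost and FLNC and MYL12A (log2 1.00) were gained. MYL12B, a regulatory light chain of non-muscle myosin, was at 41.6 and 45.9 CPM with R1881 and rose to 81.9 and 91.2 CPM (log2 1.04 ± 0.11, edgeR adjusted p = 9.4e-10). ANKRD1, a YAP target, was at 14.6 and 14.8 CPM and rose to 27.8 and 31.4 CPM (log2 1.07 ± 0.14, edgeR adjusted p = 5.7e-08). Both lay within 0.1 of the size limit and dropped under it without combination replicate 2, at 0.96 for MYL12B and 0.98 for ANKRD1, and MYL12B also without R1881 replicate 1 (0.97). Without combination replicate 1 they were at 1.11 and 1.15.

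ACTA2 fell in these libraries, from 11.6 and 17.4 CPM to 6.43 and 4.93 CPM (log2 -1.30 ± 0.20, edgeR adjusted p = 1.2e-06), while FAS was at 7.64 and 10.6 CPM and then at 7.94 and 9.45 CPM. Without R1881 replicate 2 the ACTA2 value was -0.98, and without combination replicate 1 it was -1.50. CCN2, a YAP target of the matrix, had 84 counts in each R1881 library and 20 and 47 counts with the combination (log2 -1.02 ± 0.31, edgeR adjusted p = 0.0053). Without combination replicate 1, whose header names namoline only, CCN2 was at -0.64 (adjusted p = 0.0944), and without combination replicate 2 at -1.61. CCN2 and ANKRD1 therefore moved in opposite directions although both are YAP targets, the former on the count of 1 library. CARMIL3, which was named earlier on this comparison, was at 1.96 and 2.14 CPM with R1881 and at 10.4 and 11.1 CPM with the combination, a log2 fold change of 2.45, opposite in sign to that in C4-2. Without combination replicate 1 the CARMIL3 value was 2.49.

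Several members that had risen in C4-2 went down by less than the size limit in the libraries labelled LNCaP, while CCN1, GSN and PDLIM5 went up without a call. CCN1 was at 38.7 and 31.5 CPM and then at 48.3 and 52.4 CPM. SRF was at 141 and 148 CPM and then at 93.4 and 77.7 CPM (log2 -0.70 ± 0.10, edgeR adjusted p = 7.6e-07). ACTB was at 1229 and 1102 CPM and then at 761 and 666 CPM (log2 -0.65 ± 0.12, edgeR adjusted p = 1.4e-05). FLNC was at 371 and 380 CPM and then at 243 and 163 CPM (log2 -0.83 ± 0.12, edgeR adjusted p = 1.4e-06), and without combination replicate 1 it was at -1.14. Without that library SRF was at -0.84 and ACTB at -0.75. The chosen genes had small changes here, with TPM4 at 194 and 230 CPM and then at 260 and 278 CPM (log2 0.40 ± 0.10), FLNA at 533 and 530 CPM and then at 481 and 385 CPM (log2 -0.24 ± 0.11), and SIPA1L2 at 80.7 and 84.4 CPM and then at 66.7 and 62.7 CPM (log2 -0.29 ± 0.11). Without combination replicate 1 the log2 values of TPM4, FLNA and SIPA1L2 were 0.44, -0.41 and -0.34.

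The difference between the lines in the combination effect was then tested itself, as C4-2 minus LNCaP. It was called for 13 of 40 members (32.5%), 12 of them larger in C4-2, against 25.4% of all genes (11.5% and 13.9% by direction). SRF differed by 2.34 ± 0.13 (edgeR adjusted p = 2.9e-13), CCN1 by 3.12 ± 0.21 (3.9e-12), CNN2 by 2.53 ± 0.19 (3e-11) and ACTB by 1.70 ± 0.13 (8.9e-11). GSN, ZYX, MYH9 and PDLIM5 differed by 1.65 ± 0.16, 1.63 ± 0.19, 1.46 ± 0.15 and 1.41 ± 0.12. All 11 members that rose in C4-2 were among these 12, the other being CCN2. Without LNCaP combination replicate 1 the differences of SRF, CCN1, CNN2 and ACTB were 2.46, 3.04, 2.73 and 1.78. Those of GSN, ZYX, MYH9 and PDLIM5 were 1.62, 1.92, 1.64 and 1.46. ACTA2 (6.10 ± 0.42) and FLNC (2.22 ± 0.49) were also called, with few counts in C4-2. CALD1, caldesmon, which binds tropomyosin-coated filaments, was the member with the opposite sign (-1.20 ± 0.13, edgeR adjusted p = 1.8e-08). CALD1 was at 328 and 294 CPM in C4-2 R1881 and at 260 and 239 CPM with the combination, and at 78.8 and 88.2 CPM and then 133 and 147 CPM in the libraries labelled LNCaP. With the GC correction its difference was -0.94, under the size limit.

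**Figure D5:**
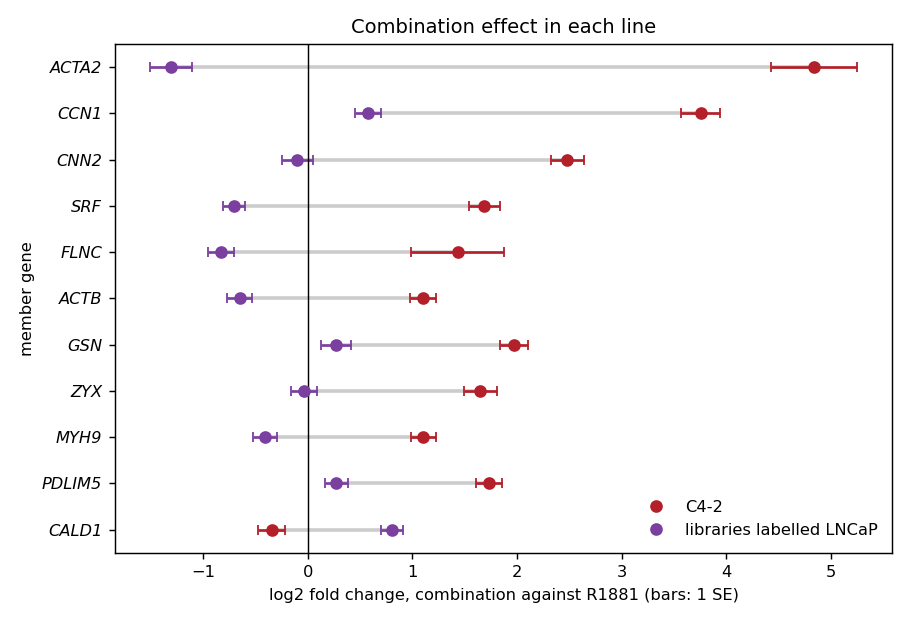
Log2 fold change of the combination against R1881 in C4-2 (red) and in the libraries labelled LNCaP (purple) for the 11 members whose effect differed between the lines and that were tested in both. Bars are 1 SE from the fit within each line. The red points lie right of 1 for 10 members, where the purple points lie left of 1, and CALD1 has the opposite order.

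MYL9 and CCN2 are among the 13, but MYL9 passed the filter on low counts only through the C4-2 combination libraries and CCN2 only through the libraries labelled LNCaP, so both had to differ in level, and without such members 10 of 36 were larger in C4-2 and 1 smaller. MYL9 had 0 and 3 counts in LNCaP R1881 and 0 and 1 with the combination, and without LNCaP R1881 replicate 2 its difference was 2.35 with an adjusted p of 0.917, against 8.12 without combination replicate 2 and 6.74 without R1881 replicate 1. CCN2 had 0 counts in both C4-2 R1881 libraries and 7 and 5 counts with the combination, which is at least 4.37-fold higher when the R1881 group is set at a floor of 3 counts over the group. CCN2 was too low for the C4-2 fit. The differences between lines for the genes chosen on these effects were 3.75 for TPM4, 4.0 for FLNA, 4.02 for SIPA1L2 and -4.05 for CARMIL3, given without a test.

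With R1881 alone, 25 of 44 members (56.8%) differed between the lines, 17 higher and 8 lower in the libraries labelled LNCaP, against 50.4% of all genes (26.2% higher and 24.3% lower). ANKRD1, CCN2 and CNN3 passed the filter only through the libraries labelled LNCaP and MYL9 only through C4-2, and without these 4 the counts were 14 higher and 7 lower of 40. All 4 YAP targets among the members, both filamins and both membrane linkers were higher there. A separate list of other YAP targets, taken up below, was split, with 9 higher and 5 lower of 16 tested. Of those higher, 4 passed the filter only through the libraries labelled LNCaP. TPM4 and FLNA are among the 17, but the C4-2 R1881 libraries compared here also served to choose them, so their values are no test. TPM4 was 22.8-fold higher (194 and 230 CPM against 8.81 and 9.49 CPM), so the C4-2 combination libraries, at 166 and 176 CPM, came near that level. CCN1 was at 38.7 and 31.5 CPM in LNCaP R1881, a range that the C4-2 combination libraries, at 35.4 and 42.3 CPM, overlapped. SRF was at 141 and 148 CPM in LNCaP R1881, which also overlapped its C4-2 combination libraries, at 124 and 142 CPM. FLNA was at 533 and 530 CPM there and was exceeded by C4-2 after the combination.

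FLNC, the muscle filamin, was at 371 and 380 CPM in LNCaP R1881 and at 0.469 and 0.65 CPM in C4-2. CNN3, a calponin, was at 175 and 196 CPM against 0.375 and 0.195 CPM. ANKRD1 had 313 and 325 counts against 3 and 0, a ratio of 180 (95% counting interval 61.2 to 874). After the combination these 3 genes were still at no more than 1.69 CPM in C4-2. CCN2, with 84 counts in each LNCaP R1881 library and 0 in C4-2, was at least 47.3-fold higher. ACTA2 was at 11.6 and 17.4 CPM against 0.187 and 0.39 CPM. Further members higher in the libraries labelled LNCaP were TAGLN2 (337 and 357 CPM), AMOTL2 (32 and 38 CPM), EZR (228 and 252 CPM) and CAPG (10.1 and 14.3 CPM), with log2 differences of 2.57, 1.91, 1.80 and 1.75. PDLIM1, a LIM protein, was at 68.6 and 76.1 CPM against 14.3 and 19.4 CPM, TPM2 at 19.7 and 16.6 CPM against 6.33 and 5.66 CPM, MYH10 at 395 and 451 CPM against 175 and 173 CPM, and MSN, moesin, at 123 and 152 CPM against 63.1 and 69.8 CPM. MSN was under the size limit without C4-2 R1881 replicate 1 (log2 0.96) and without LNCaP R1881 replicate 2 (0.90). The ANKRD1 log2 difference of 7.35 was 11.08 without C4-2 R1881 replicate 1 and 6.60 without replicate 2, and that of CNN3 was 9.21 and became 9.83 without C4-2 R1881 replicate 1.

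Members lower in the libraries labelled LNCaP included TES, at 60.9 and 64.6 CPM against 441 and 435 CPM in C4-2 (log2 -2.83 ± 0.09, edgeR adjusted p = 1.3e-20). TPM1 was at 39.4 and 39.7 CPM against 142 and 140 CPM, and CALD1 had a log2 difference of -1.93 ± 0.09. ACTN1, alpha-actinin, was at 69.7 and 68.7 CPM against 169 and 192 CPM, and MRTFB at 56.4 and 55.8 CPM against 117 and 111 CPM, with a log2 difference of -1.05 that was marginally under the limit without C4-2 R1881 replicate 1. MYL12A was at 29 and 31.5 CPM against 91.5 and 86.3 CPM, and MYL12B at 41.6 and 45.9 CPM against 131 and 121 CPM. MYL9 was the fourth myosin light chain on the list and the least certain, with 3 counts in all against 12 (ratio 4.73, 95% counting interval 1.28 to 26.1). The MYL9 call was lost without either C4-2 R1881 library (adjusted p = 0.0824 and 0.0524) and without LNCaP R1881 replicate 1 (0.221), and its log2 value of -2.17 was -5.61 without LNCaP R1881 replicate 2.

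Of the members not named so far as called, 10 were tested and called in none of the 7 comparisons as fitted, namely ACTG1, ACTN4, CFL1, MRTFA, MYL6, PDLIM7, PFN1, TLN1, TPM3 and VCL. Their log2 fold changes in C4-2 lay between -0.62 (TLN1 with TCE-5002) and 0.70 (VCL with the combination). VCL, vinculin, which links integrins to actin, was at 228 and 236 CPM with R1881 and at 367 and 400 CPM with the combination, and passed the adjusted p alone (edgeR, 9.1e-05). TLN1, talin, and MRTFA lay close to the size limit. The TLN1 interaction was 0.99 and was called under 7 of its alternatives (1.37 with the GC correction), and the MRTFA difference between lines was 0.95 and was called under 7. The TPM3 interaction of -0.86 was called in 1, at -1.04 without TCE-5002 replicate 2. TAGLN3, CNN1 and VIL1 were too low for any of the fits reported. TAGLN3 had 1 count in all 12 libraries together. CNN1 had at most 14 counts in a library and VIL1 at most 20, and VIL1 shares 44% of its exon bases with another gene.

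Further genes of the same pathways were taken from 5 lists of 93 genes. Of the 87 tested in C4-2, 5 rose and 15 fell with the combination (23.0%), close to the 21.7% over all genes (8.9% higher and 12.8% lower). With namoline 7 rose and 4 fell (12.6%, against 12.1% of all genes), and with TCE-5002 6 rose and 4 fell (11.5%, against 11.9%). Their median log2 fold change with the combination was 0.05. The integrin and focal adhesion list had 3 rises and 5 falls among 21 genes with the combination, the other YAP targets 1 rise and 5 falls among 12, the Hippo and YAP core 1 of each among 17, and the Arp2/3, WASP and capping list 0 rises and 1 fall among 19. Falls outnumbered rises in the 5 lists together, as they did over all genes, and the lists were not tested against the members or each other.

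GADD45B, a stress-response gene and YAP target, rose most with the combination, from 6.28 and 5.72 CPM to 57.8 and 68.4 CPM (log2 3.36 ± 0.17, edgeR adjusted p = 1.2e-09). FERMT2, kindlin-2, which activates integrins, was at 29.4 and 28.2 CPM and rose to 94.4 and 103 CPM (log2 1.75 ± 0.15, edgeR adjusted p = 2.2e-07). TNS3, a tensin of adhesions, was at 8.58 and 10 CPM and fell to 1.7 and 1.19 CPM (log2 -2.69 ± 0.25, edgeR adjusted p = 5e-07). WWTR1, which encodes the YAP relative TAZ, was at 11.4 and 10 CPM and fell to 2.39 and 1.75 CPM (log2 -2.39 ± 0.22, edgeR adjusted p = 4.7e-07). So CCN1 and GADD45B rose while 5 of the other YAP targets, and WWTR1, fell in the same libraries.

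With the single inhibitors the largest falls were shared by name. CCDC80, a matrix protein, was at 9.37 and 6.76 CPM with R1881, 1.89 and 1.26 CPM with namoline and 1.3 and 1.5 CPM with TCE-5002, and it was at 10.1 and 13.6 CPM with the combination. ARHGEF2, an activator of RhoA that is released from microtubules, was at 176 and 190 CPM with R1881, 44 and 42.4 CPM with namoline, 58.4 and 70.2 CPM with TCE-5002, and 149 and 167 CPM with the combination. Both genes thus had the pattern of TES. Their log2 fold changes were -2.37 ± 0.28 and -2.10 ± 0.12 with namoline and -2.53 ± 0.28 and -1.51 ± 0.12 with TCE-5002. The largest rises were those of FERMT1, kindlin-1 (log2 1.80 ± 0.17), and FJX1 (1.62 ± 0.27) with namoline, and of CARMIL2 (2.23 ± 0.39) and the angiomotin relative AMOTL1 (1.33 ± 0.35) with TCE-5002.

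In the libraries labelled LNCaP, 3 of 91 genes of these lists rose and 11 fell (15.4%), against 18.7% of all genes (7.4% higher and 11.3% lower), and 4 of these calls were of genes that passed the filter through 1 group alone. The capping protein subunit CAPZA1 was at 119 and 125 CPM and rose to 234 and 258 CPM (log2 1.07 ± 0.10, edgeR adjusted p = 7.4e-11), and MYOF, a membrane repair protein, had a larger log2 fold change of 1.40, on levels under 1 CPM and as 1 of those 4. The integrin gene ITGB4 was at 7.22 and 8.7 CPM and fell to 1.21 and 0.711 CPM (log2 -3.01 ± 0.30, edgeR adjusted p = 1.8e-10). All values of these lists include LNCaP combination replicate 1. CCDC80 fell here with the combination, from 25.5 and 21.8 CPM to 5.4 and 4.32 CPM (log2 -2.23 ± 0.18, edgeR adjusted p = 1.4e-12), whereas in C4-2 its value was 0.51 ± 0.22 (edgeR adjusted p = 0.067), and the difference between the lines was called (log2 2.68 ± 0.26, edgeR adjusted p = 3.7e-09).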

How the data were processed

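Deposited values are counts of read pairs per gene: per the file headers the authors counted with featureCounts 1.5.0-p1 against Ensembl release 83 (GRCh38), without regard to strand and leaving out multi-mapped reads, after Trim Galore trimming and STAR alignment per the labels. Reads of near-identical copies or overlapping genes can therefore be lost or misplaced. Gene symbols came from a separate gene name reference, exon overlap from the deposited exon coordinates, and GC content from GENCODE v29. All 47 members matched, and 8 share over 10% of their exon bases with another gene. Members and lists were chosen with earlier results of these data known. Groups came from the titles.

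Genes were filtered (filterByExpr, minimum count 10), scaled by TMM and tested with edgeR 4.0.16 (R 4.3.3) by glmQLFit and glmQLFTest, over all genes, with Benjamini-Hochberg adjustment, and were called at an adjusted p under 0.05 with a log2 fold change of 1 or more in size. One fit held the 8 C4-2 libraries, one the 4 LNCaP libraries, and one the 8 R1881 and combination libraries of both lines, and each group of 2 was estimated by its mean. SE values were worked back from the test, as the size of the log2 fold change divided by the square root of its quasi-likelihood F statistic. Levels are TMM-scaled CPM over all 12 libraries. Replicate libraries differed by more than sampling noise. Intervals and floors (3 counts) cover counting error only. Alternatives were RLE scaling, no filter, a likelihood ratio test, DESeq2 1.42.0, a replicate block, fits on the compared libraries alone, a GC correction (loess, span 0.5) and leaving out each library. Every fit was tested on simulated counts with known changes. Per-library and pathway genes were named by a fixed rule: members called in at least 1 of the 7 comparisons, and the 2 largest rises and falls of the 5 pathway lists in each treatment comparison. The separate result of 1 pathway list is not reported here. Promoter windows came from RefSeq, with none used here for ACTB, CCN1, TAGLN, VIL1 and MYL9.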

Additional observations from a re-analysis of the deposited data

Results flagged for a closer look

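The combination effect differed between C4-2 and the libraries labelled LNCaP for 13 members, by a test of the difference itself. As C4-2 minus LNCaP on the log2 scale the differences were 3.12 for CCN1, 2.53 for CNN2, 2.34 for SRF, 1.70 for ACTB, 1.65 for GSN, 1.63 for ZYX, 1.46 for MYH9 and 1.41 for PDLIM5, each with all 4 C4-2 libraries separated by treatment. The difference was -1.20 for CALD1, which was under the size limit with the GC correction. Members with few counts in 1 of the lines gave 6.74 for CCN2, 6.10 for ACTA2, 5.73 for MYL9 and 2.22 for FLNC, and the sizes for CCN2 and MYL9 depend on how a count of 0 is treated. CCN2 passed the filter on low counts only through the libraries labelled LNCaP and MYL9 only through the C4-2 combination, so their tests carry no weight.

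VIM, CDH2, ZEB1, ZEB2 and SPARC were far higher in the libraries labelled LNCaP than in C4-2. In C4-2, CDH2 was at no more than 0.06 CPM and VIM at no more than 4.8 CPM. The 12 listed mesenchymal genes, mostly VIM, summed to 843 to 943 CPM with R1881 and 767 to 801 CPM with the combination. In the C4-2 R1881 and combination libraries they summed to 81.3 to 103 CPM. COL1A1 went the other way, at 4.89 and 4.01 CPM in LNCaP R1881 against 49.5 and 50.9 CPM in C4-2 R1881, as did PDGFRB. FN1 was at 38.2 and 40.1 CPM against 26.9 and 28.2 CPM, and COL1A2, COL3A1, LUM and DCN were under 1 CPM in both lines. The part of the mesenchymal markers in the difference between lines was not tested, and line and these markers cannot be told apart here.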

How the results depend on the processing

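Of the 7 counts of called members, 6 stayed within 1.5 times of the reported count under every alternative run. The count for the libraries labelled LNCaP was 4 and became 2 when GC content was corrected, with the replicate block or without it (2 each), where ANKRD1 and CCN2 dropped under the size limit at 0.88 and -0.96 (without the block); the cause was not tested. No called log2 fold change of a member changed sign in 1214 values under alternatives, and 46 of them, from 18 of 79 called values, lost the call. In the other direction 13 values that were not called gained a call in 30 values under alternatives, most often the TLN1 interaction and the MRTFA difference between lines (7 each). The combination count in C4-2 was 12 in all leave-one-out fits, the namoline count 4 to 7, the TCE-5002 count 3 to 4, the interaction count 13 to 18, the LNCaP count 3 to 5, the count for the difference between lines 13 to 15 and the R1881 count 22 to 25. Fits with a lone library in a group keep lower counts, and VIL1 and CNN1 enter some of them. For the C4-2 combination the number stayed the same but the members did not. Without R1881 replicate 1 and without combination replicate 2, FLNC (log2 1.20 and 1.29) dropped out and MYL12A (1.01 in each) came in. Over the members of the reported fits alone, the namoline count was 3 without namoline replicate 2 and 6 at most, the interaction count 12 (without C4-2 R1881 replicate 2) to 17, and the LNCaP count 2 without LNCaP combination replicate 2, where ANKRD1 and MYL12B were lost, to 5. Leaving out the 8 members that share over 10% of their exon bases with another gene, an alternative chosen after seeing the data, gave 11 for the C4-2 combination and 3 for LNCaP. Leaving out members that passed the filter through 1 group or line alone, also chosen after seeing the data, gave 11 for the combination, 14 for the interaction, 11 for the difference between lines and 21 with R1881.

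Replicate numbers are shared between groups, and the labels tie them to no batch or day. Deviations of same-numbered libraries correlated at 0.122 to 0.28 among C4-2 R1881, namoline and TCE-5002, at -0.0124 to 0.0673 between these and the combination, at 0.00446 in LNCaP and at -0.31 to -0.0199 across lines, so the numbers were not taken as pairs. With the replicate block the counts were 6 for namoline, 4 for TCE-5002, 12 for the combination, 15 for the interaction, 4 for LNCaP, 13 for the difference between lines and 25 with R1881, so it moved none of them. With 2 libraries a group, members under about 10 counts in a library (MYL9, ACTA2, FLNC, CCN2) had the widest errors. CNN1, TAGLN3 and VIL1 were too low to enter the reported fits. With no filter on low counts VIL1 was called for the interaction (log2 -3.98, edgeR adjusted p = 0.0027) and with namoline (log2 2.03, edgeR adjusted p = 0.039). These VIL1 values rest on few counts, and VIL1 shares 44% of its exon bases with another gene.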
